A study of Mus musculus with 12 samples.

Results

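The transcripts of 10 genes that carry fatty acids into the heart muscle cell and break them down in mitochondria were followed in RNA-seq of 12 mouse hearts. Cd36, Fabp3, Cpt1b, Slc25a20, Cpt2, Acadvl, Acadl, Acadm, Hadha and Hadhb were taken by symbol, and all 10 were found among the 55885 genes of the deposited table. All 10 passed the filter on low values, which kept the 13815 genes with at least 1 TPM in at least 3 hearts. TPM is corrected for transcript length and for the total of each heart, so that levels of different genes can be set side by side.

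The hearts came from male mice in 4 groups of 3, labelled C57BL/6 and given as C57BL/6J in the methods of the study, which took mice into the experiment at 8 weeks of age. Saline and CDDP mice were wild type. STING-/- and STING-/-+CDDP mice were labelled Tmem173-/- and lacked STING, an adaptor of innate immunity that answers to cytosolic DNA, in the whole body. CDDP and STING-/-+CDDP mice received cisplatin at 6 mg/kg into the peritoneum on days 1, 8 and 15, dissolved in saline, and hearts were taken a week after the last injection. The labels call the mice without cisplatin untreated, while the methods of the study call the wild-type ones its saline group. The wild-type and STING-/- mice were bought from different suppliers, so that genotype and source cannot be told apart. The study asked what part STING plays in damage of the heart by cisplatin. No sequencing depth is known, because TPM keeps none, and 3 hearts per group limit the precision.

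Heart muscle draws most of its energy from long-chain fatty acids. CD36 takes them up at the cell surface and FABP3 carries them through the cytosol. CPT1B on the outer mitochondrial membrane links them to carnitine, the carrier encoded by Slc25a20 moves the acylcarnitine inwards, and CPT2 on the inner membrane turns it back into acyl-CoA. The acyl-CoA dehydrogenases for very long, long and medium chains (Acadvl, Acadl, Acadm) take the first step of each round of beta-oxidation, and the trifunctional protein, built from the alpha subunit HADHA and the beta subunit HADHB, takes the rest for long chains. Transcription of many of these genes is driven by PPAR alpha and the estrogen-related receptors with the coactivator PGC-1 alpha.

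The stretch before the start of 3 of the genes is shown, each written in the direction of the gene unless stated and taken from the RefSeq promoter table on GRCm38.p6. Hadha and Hadhb lie head to head on chromosome 5 and share the first stretch, chr5:30155163-30155247, between Hadha on the minus strand (chr5:30118304-30155162) and Hadhb on the plus strand (chr5:30155248-30184593). It is written on the plus strand. The second stretch, chr4:107923611-107923839 on the minus strand, lies before Cpt2 (chr4:107903981-107923610), the only one of the 10 genes called between the cisplatin groups of the 2 genotypes. The third, chr11:70015412-70015678 on the minus strand, lies before Acadvl (chr11:70010183-70015411) and is shown for its nuclear receptor half-site. Capitals mark AGGTCA or its reverse complement TGACCT. None of the 3 stretches overlapped another gene of the GENCODE M21 annotation.
Hadha-Hadhb gap: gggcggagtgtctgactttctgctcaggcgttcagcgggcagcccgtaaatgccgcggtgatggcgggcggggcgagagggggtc
Cpt2: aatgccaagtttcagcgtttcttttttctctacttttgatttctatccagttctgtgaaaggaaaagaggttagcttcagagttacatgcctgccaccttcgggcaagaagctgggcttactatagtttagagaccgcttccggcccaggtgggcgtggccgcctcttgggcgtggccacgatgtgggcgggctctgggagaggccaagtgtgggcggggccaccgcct
Acadvl: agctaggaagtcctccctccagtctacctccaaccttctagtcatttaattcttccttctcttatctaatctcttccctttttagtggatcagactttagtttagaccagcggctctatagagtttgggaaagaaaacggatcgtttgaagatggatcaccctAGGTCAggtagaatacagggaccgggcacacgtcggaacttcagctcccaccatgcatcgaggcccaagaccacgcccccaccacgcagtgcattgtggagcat

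Promoters, taken as 250 bases before to 50 after the start, were listed for 9 of the 10 genes (not Cpt1b). The half-site AGGTCA, read on both strands, stood in 3 of these 9, at -249 in Acadm, -228 in Cd36 and -87 in Acadvl counted from the RefSeq start, and in 16.3% of all 32851 promoters of that length. The RefSeq start of Acadvl lies 17 bases before the GENCODE start given above, so that in the printed stretch the half-site begins at -104, and the RefSeq start of Cd36 lies inside the GENCODE gene. The longer estrogen-related receptor element TNAAGGTCA, which contains the half-site, stood in 0 of the 9 and in 1.28% of all promoters. The direct repeat AGGTCANAGGTCA, the form bound by PPAR with RXR, stood in 0 of the 9 and in 0.0396% of all. The 9 were counted by gene, a gene counting if any of its listed promoters held the letters. The percentages were counted by promoter, and a gene can have several. These letters describe the windows alone.

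The labels were checked first. Sting1 (Tmem173), the gene knocked out in the STING-/- line, had 12.3, 6.59 and 6.50 TPM in Saline and 22.1, 5.62 and 8.81 TPM in CDDP hearts. It stood at 3.82, 5.96 and 2.87 TPM in the STING-/- hearts and at 4.26, 4.67 and 3.37 TPM in the STING-/-+CDDP hearts. The STING-/- hearts were all below the Saline hearts, but the transcript was not absent, and STING-/- 2 lay above CDDP 2. Whether the reads fall outside the altered part of the gene was not tested. Every heart held the markers of heart muscle at high level, for example Myh6, the main myosin of the adult mouse ventricle, between 3006 TPM (CDDP 1) and 11098 TPM (STING-/- 3).

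The 10 genes are among the more abundant transcripts of the heart. Fabp3 led with a mean of 4172 TPM over the 12 hearts and rank 24 of all genes. Hadhb followed at 962 TPM, Cd36 at 781, Acadl at 545, Acadm at 514, Acadvl at 512 and Hadha at 419 TPM. The 3 genes of the carnitine shuttle came last, Cpt1b at 194, Slc25a20 at 114 and Cpt2 at 98.4 TPM (rank 860). Over the hearts Fabp3 stayed above Hadhb and Hadha above Cpt1b, while the ranges of all other neighbours in this order overlapped. Summed, the 10 genes took 8158, 7529 and 8920 TPM in the Saline hearts and 4970, 8934 and 5865 TPM in the CDDP hearts. They took 8758, 8356 and 9493 TPM in the STING-/- hearts and 8619, 9930 and 10194 TPM in the STING-/-+CDDP hearts. CDDP 1 and CDDP 3 stood lowest of all 12 hearts, and CDDP 2 stood among the Saline and STING-/- hearts. CDDP 1 was the lowest heart for 8 of the 10 genes, the exceptions being Slc25a20 (Saline 2) and Cpt2 (CDDP 3), whereas CDDP 2 was the highest of all hearts for Acadl, Acadvl, Hadha and Slc25a20.

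**Figure D1:**
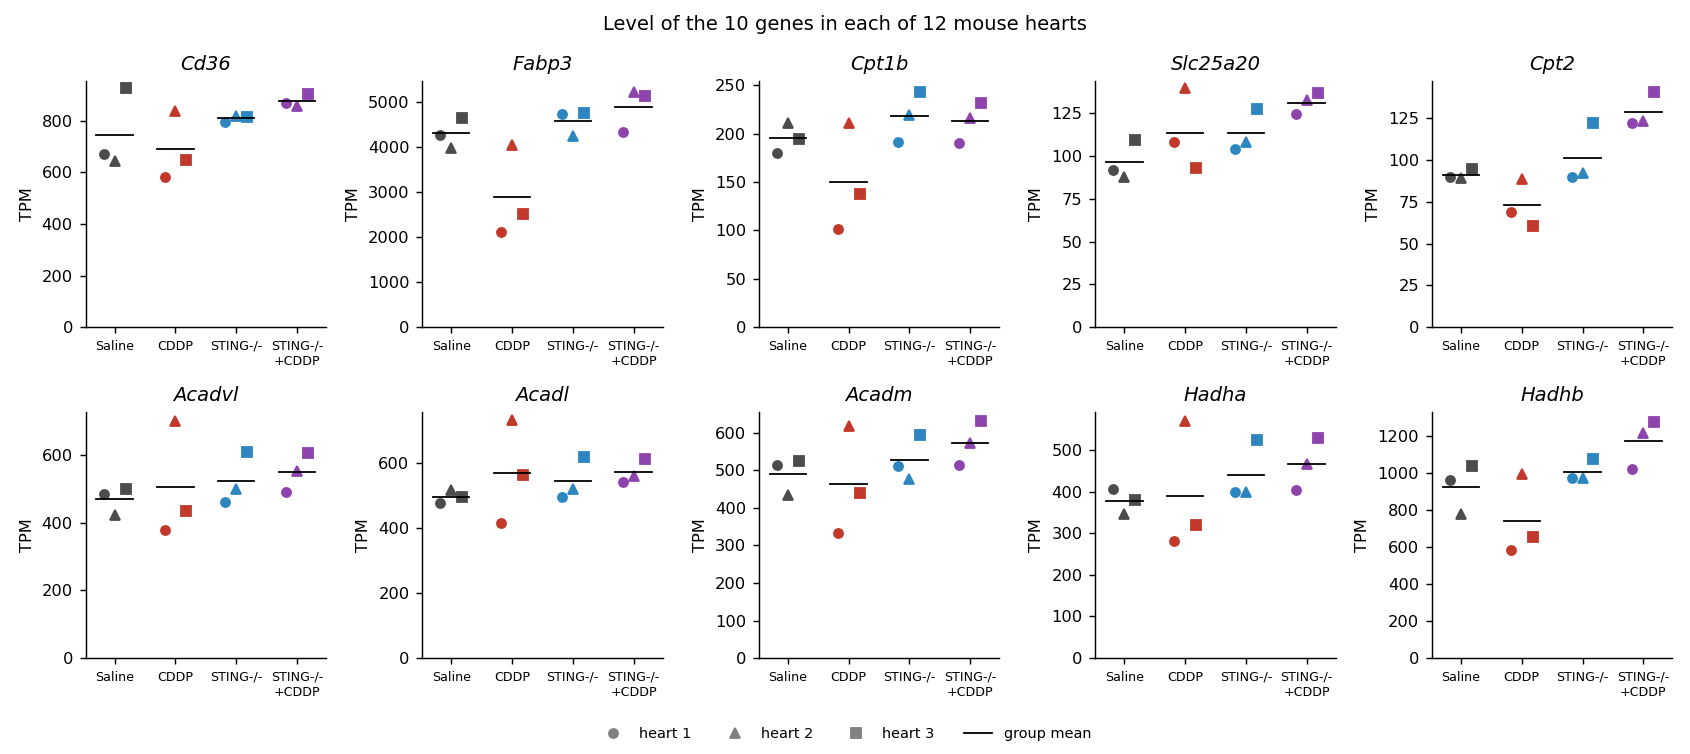
Level of each of the 10 genes in TPM (y axis, from 0) in the 12 hearts, by group (x axis), with the mark shape giving the heart number and the line the group mean (n = 3). For Fabp3 the CDDP hearts 1 and 3, at 2118 and 2518 TPM, stand below every other heart, while CDDP 2 at 4042 TPM lies with the Saline hearts.

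Because 1 CDDP heart ran apart from the other two in most of the 10 genes, results are given with and without CDDP 2. This heart was singled out from the values of these 10 genes, so calls gained without it follow from that choice and are given as a description. Over all tested genes CDDP 2 was not the outlying heart, since arrayWeights gave it 1.204, against 0.383 for CDDP 1 and 0.569 for CDDP 3, where a lower weight marks a heart farther from its group. Changes are differences of log2(TPM + 1) with their standard error (SE) from limma, fitted to all 12 hearts with the p-value adjusted by Benjamini-Hochberg over the 13815 genes. A change was called at an adjusted p under 0.05. In bulk tissue, fewer cells of a type and less RNA per cell cannot be told apart.

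In wild-type hearts, the first comparison set cisplatin against saline. Of the 10 genes, Fabp3 fell, and no other gene was called in either direction. Across all tested genes 10.4% were called lower and 8.52% higher in CDDP than in Saline, so that 1 of 10 lower is no more than the background. The median log2 change of the 10 genes was -0.12, beside 0.00 for all tested genes, with 7 values below 0 and 3 above. Fabp3 had 4276, 3994 and 4661 TPM in the Saline hearts and 2118, 4042 and 2518 TPM in the CDDP hearts. The groups overlapped in 1 heart, CDDP 2, which lay just above Saline 2. The change was -0.63 ± 0.20 (SE, adjusted p = 0.0440), 1.55-fold lower on the log2(TPM + 1) scale.

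Cpt1b, the step of entry into mitochondria and the target of malonyl-CoA, had 180, 211 and 194 TPM in Saline and 102, 211 and 138 TPM in CDDP hearts, a change of -0.44 ± 0.22 (adjusted p = 0.182). Cpt2 had 89.6, 89.1 and 94.7 TPM in Saline and 68.9, 88.7 and 60.8 TPM in CDDP hearts. It was the only 1 of the 10 with all CDDP hearts below all Saline hearts, by a margin of less than 1 TPM at CDDP 2, and 17.1% of all tested genes had this order. Its change was -0.34 ± 0.16 (adjusted p = 0.165). Hadhb had 964, 780 and 1036 TPM in Saline and 582, 994 and 653 TPM in CDDP hearts, a change of -0.35 ± 0.19 (adjusted p = 0.218). For these 3 genes the CDDP hearts 1 and 3 lay below the Saline hearts and CDDP 2 just below or within their range.

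The remaining members had values close to 0. Cd36 had -0.11 ± 0.16, Acadm -0.13 ± 0.20, Hadha -0.02 ± 0.23, Acadvl 0.05 ± 0.20, Acadl 0.16 ± 0.18 and Slc25a20 0.22 ± 0.16, with adjusted p from 0.361 for Slc25a20 to 0.960 for Hadha. With SEs of 0.16 to 0.23 changes of this size could not be told from 0. Acadl had 477, 517 and 494 TPM in Saline and 415, 731 and 562 TPM in CDDP hearts, and Acadvl 486, 424 and 499 TPM against 379, 702 and 434 TPM. In both genes CDDP 2 was the highest and CDDP 1 the lowest of all 12 hearts. The SD between CDDP hearts was 158 TPM for Acadl, against 20.0 TPM between Saline hearts.

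Without CDDP 2, which was left out for its values in these genes, 3 of the 10 were called lower, beside 9.05% of all tested genes in the same fit. Fabp3 fell by 0.90 (adjusted p = 0.0028), Cpt1b by 0.71 (0.0173) and Hadhb by 0.58 (0.0259) on the log2 scale, Cpt2 had -0.49 (0.0569) and the median of the 10 was -0.34. Without CDDP 1 none was called (4314 of all tested genes and 2 of the 10, Fabp3 and Acadl, had an unadjusted p under 0.05), Fabp3 had -0.43 (adjusted p = 0.131) and the median was 0.05. The call of Fabp3 was lost when any heart but CDDP 2 was left out (adjusted p 0.0543 to 0.131) and kept in 4 of 13 other alternative settings (0.0375 to 0.732 over all 13).

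**Figure D2:**
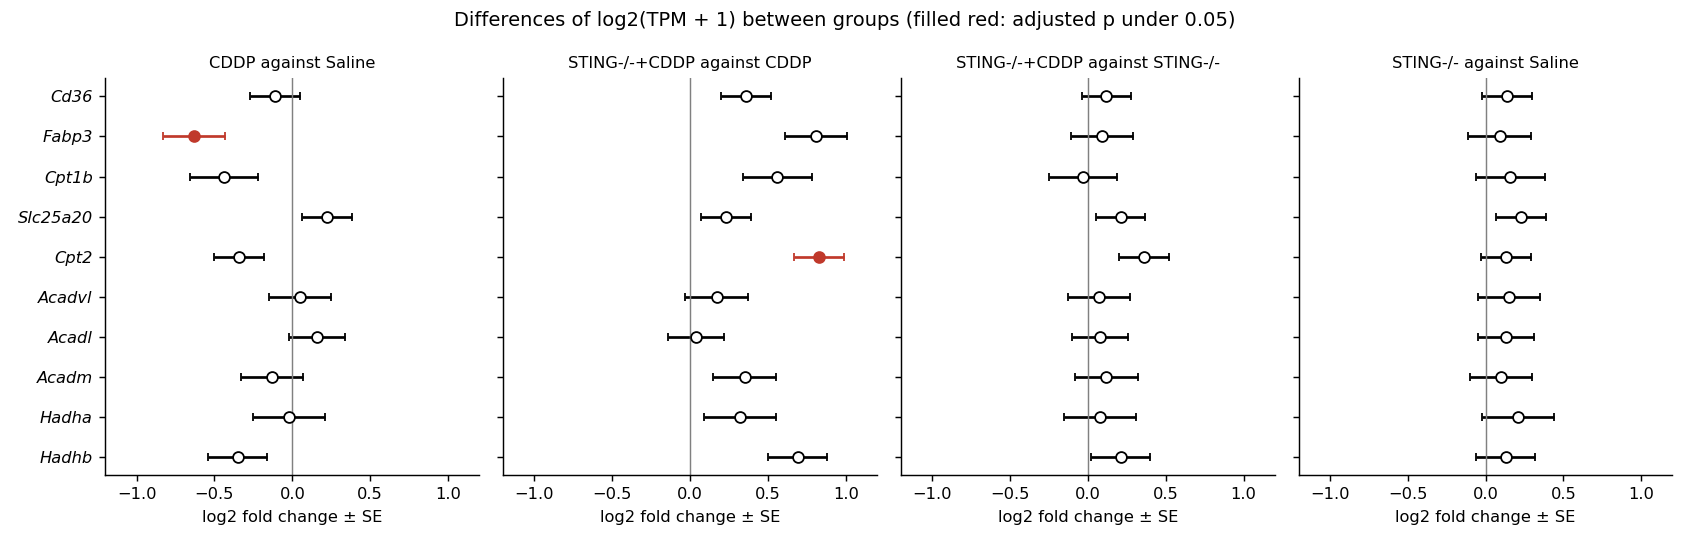
Log2 fold change (x axis) of the 10 genes (y axis) in 4 comparisons, with bars for 1 SE of the limma fit (n = 3 hearts per group) and filled red points for an adjusted p under 0.05. Fabp3 at -0.63 in CDDP against Saline and Cpt2 at 0.83 in STING-/-+CDDP against CDDP are the 2 called values.

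The genotypes were next compared under cisplatin. This comparison shares the CDDP hearts with the previous one, and each is given by its own values. Cpt2 rose in STING-/-+CDDP hearts over CDDP hearts, the 1 gene of 10 called, and none was called lower. Over all tested genes 0.362% were called higher and 0.854% lower. All 10 values were above 0, from 0.04 for Acadl to 0.83 for Cpt2, with a median of 0.36 beside -0.09 for all tested genes. Cpt2 had 122, 123 and 141 TPM in STING-/-+CDDP hearts and 68.9, 88.7 and 60.8 TPM in CDDP hearts. The groups stood well apart, and the change was 0.83 ± 0.16 (adjusted p = 0.0392), 1.78-fold.

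Fabp3 had 4342, 5226 and 5132 TPM in STING-/-+CDDP hearts, all above the CDDP hearts, with a change of 0.81 ± 0.20 (adjusted p = 0.0635). Hadhb had 1021, 1219 and 1276 TPM, again all above the CDDP hearts, with a change of 0.69 ± 0.19 (adjusted p = 0.0877). Cd36 had 870, 859 and 903 TPM against 583, 839 and 649 TPM, a change of 0.36 ± 0.16 (adjusted p = 0.236). With Cpt2 these were 4 of 10 genes whose STING-/-+CDDP hearts were all higher, an order that 7.12% of all tested genes had. Cpt1b had 191, 216 and 231 TPM against 102, 211 and 138 TPM, so that CDDP 2 lay within the other group, and its change was 0.56 ± 0.22 (adjusted p = 0.186). The dehydrogenases had 0.35 ± 0.20 for Acadm, 0.17 ± 0.20 for Acadvl and 0.04 ± 0.18 for Acadl, and Hadha had 0.32 ± 0.23 and Slc25a20 0.23 ± 0.16.

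Without CDDP 2, 4 genes were called higher, beside 0.948% of all tested genes in the same fit. These were Fabp3 by 1.08 (adjusted p = 0.0067), Cpt2 by 0.98 (0.0173), Hadhb by 0.92 (0.0182) and Cpt1b by 0.83 (0.0351), and the median of the 10 was 0.60. Without CDDP 1 none was called (2541 of all tested genes and 3 of the 10, Cpt2, Fabp3 and Hadhb, had an unadjusted p under 0.05), with 0.80 for Cpt2 (adjusted p = 0.0752), 0.61 for Fabp3 and a median of 0.23. The call of Cpt2 was kept without CDDP 2, Saline 2 (0.0413) or STING-/- 3 (0.0402), lost without any other heart (0.0525 to 0.148), and kept in 7 of 13 other alternative settings (0.0320 to 0.136 over all 13).

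Cisplatin was then read within the STING-/- genotype. None of the 10 genes was called between STING-/-+CDDP and STING-/- hearts, where 0.253% of all tested genes were called higher and 0.68% lower. Cpt2 alone had an unadjusted p under 0.05, and 1860 of all tested genes did. It had 89.6, 92.0 and 122 TPM in STING-/- hearts, of which the highest lay just below the lowest STING-/-+CDDP heart, with a change of 0.36 ± 0.16 (adjusted p = 0.367). Cd36 had 797, 819 and 814 TPM in STING-/- hearts, also all below the STING-/-+CDDP hearts, with 0.12 ± 0.16 (adjusted p = 0.802). These were 2 of 10 genes with this order, which 7.28% of all tested genes had. The values of the 10 genes ran from -0.03 ± 0.22 for Cpt1b to 0.36, with a median of 0.10 beside -0.11 for all tested genes. Fabp3 had 4733, 4248 and 4769 TPM in STING-/- hearts and a change of 0.09 ± 0.20, and Hadhb had 975, 975 and 1074 TPM and 0.21 ± 0.19.

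Without cisplatin, STING-/- hearts were compared with Saline hearts. None of the 10 was called (0 at an unadjusted p under 0.05, beside 510 of all tested genes), and 0.0724% of all tested genes were called in either direction. All 10 values were above 0 and small, from 0.09 ± 0.20 for Fabp3 to 0.23 ± 0.16 for Slc25a20, with a median of 0.14 beside 0.00 for all tested genes. Every one of the 10 overlapped between the groups. Hadha, for example, had 407, 347 and 380 TPM in Saline and 399, 399 and 523 TPM in STING-/- hearts, and Acadm had 514, 435 and 525 TPM against 511, 476 and 595 TPM.

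The difference between the 2 cisplatin effects was tested directly as an interaction. None of the 10 was called, beside 0.00724% of all tested genes. Those with an unadjusted p under 0.05, as 1615 of all tested genes had, were Fabp3 with 0.72 ± 0.28 (adjusted p = 0.378 in limma) and Cpt2 with 0.69 ± 0.23 (adjusted p = 0.338 in limma). Hadhb had 0.56 ± 0.27 and Cpt1b 0.40 ± 0.31, and the other 6 lay between -0.09 for Acadl and 0.25 for Acadm. Averaged over both genotypes, cisplatin changed none of the 10 by the test (0 at an unadjusted p under 0.05, beside 4637 of all tested genes), where 7.28% of all tested genes were called higher and 12.6% lower. The averaged values ran from -0.27 ± 0.14 for Fabp3 to 0.22 ± 0.11 for Slc25a20. A call in wild-type hearts and none in STING-/- hearts was therefore not shown to be a difference between the genotypes for any of the 10.

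Within the carnitine shuttle some ratios between genes differed by group. The ratios below were chosen after their values had been seen and are given as a description, with no test. Cpt2 over Slc25a20, the enzyme over the carrier that feeds it, was 0.98, 1.02 and 0.87 in Saline, 0.64, 0.63 and 0.66 in CDDP, 0.86, 0.85 and 0.96 in STING-/- and 0.98, 0.93 and 1.03 in STING-/-+CDDP hearts. The CDDP hearts stood below all others and close together, CDDP 2 included. Cpt1b over Slc25a20 was 1.96, 2.41 and 1.77 in Saline and 0.94, 1.51 and 1.49 in CDDP hearts, and 1.84, 2.03 and 1.91 in STING-/- and 1.53, 1.63 and 1.69 in STING-/-+CDDP hearts. Both cisplatin groups were thus below their own group without cisplatin in this ratio. Cpt2 over Cpt1b was 0.50, 0.42 and 0.49 in Saline and 0.68, 0.42 and 0.44 in CDDP hearts, and 0.47, 0.42 and 0.50 in STING-/- and 0.64, 0.57 and 0.61 in STING-/-+CDDP hearts. It overlapped between CDDP and Saline and between STING-/-+CDDP and CDDP, while STING-/-+CDDP lay above STING-/-.

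Hadhb over Hadha, the 2 subunits of 1 enzyme that start on either side of the 85-base stretch printed above, was 2.37, 2.25 and 2.72 in Saline and 2.06, 1.75 and 2.04 in CDDP hearts. It was 2.44, 2.44 and 2.05 in STING-/- and 2.53, 2.62 and 2.41 in STING-/-+CDDP hearts. CDDP hearts were below all Saline and all STING-/-+CDDP hearts, and STING-/- 3 lay at their upper end. Fabp3 over Cd36 was 6.37, 6.21 and 5.03 in Saline, 3.63, 4.82 and 3.88 in CDDP, 5.94, 5.19 and 5.86 in STING-/- and 4.99, 6.08 and 5.68 in STING-/-+CDDP hearts, with the CDDP hearts below the rest. Of the 45 ratios that the 10 genes allow, 23 did not overlap between CDDP and Saline, where 38.2% of all gene pairs did not, and 27 did not overlap between STING-/-+CDDP and CDDP, where 26.9% of all pairs did not. Between STING-/-+CDDP and STING-/- 11 of the 45 did not overlap, beside 29.2% of all pairs. Ratios that hold a common gene are not independent.

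**Figure D3:**
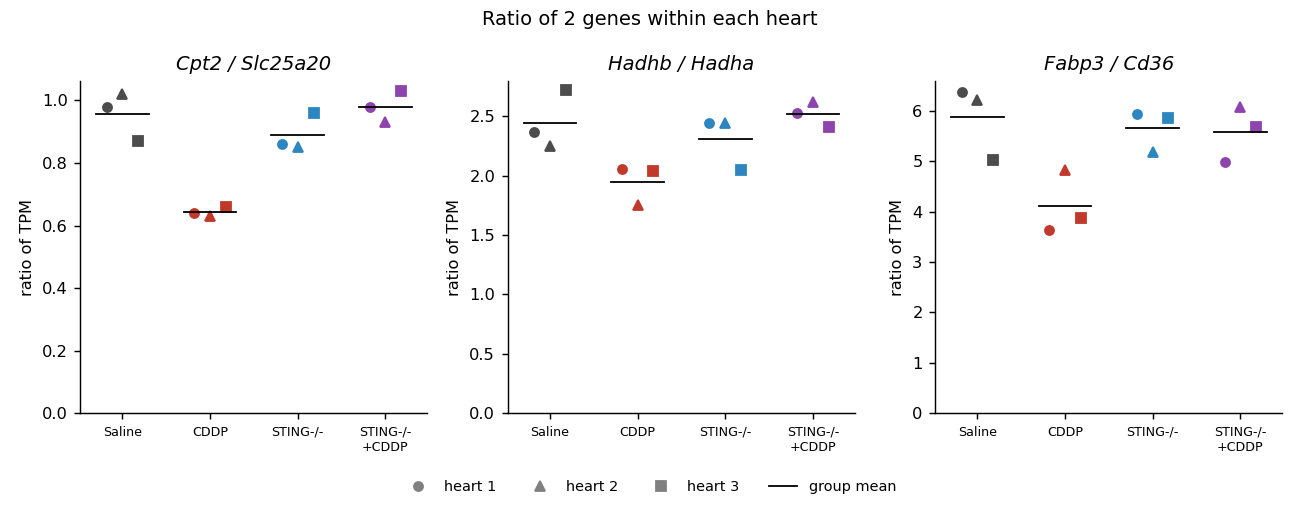
Ratio of the TPM of 2 genes (y axis, from 0) in each of the 12 hearts by group (x axis), with the line at the group mean (n = 3). Cpt2 over Slc25a20 lies between 0.63 and 0.66 in the 3 CDDP hearts and at 0.85 or more in all others.

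The 10 genes moved together across the hearts. The Pearson r of each gene with the mean of the other 9 over the 12 hearts, as a description, ran from 0.69 for Acadl and 0.71 for Slc25a20 to 0.94 for Hadha and 0.95 for Acadm. These values share the library and the scaling of each heart, and include the differences between groups. The mean z-score of the 10 genes was -1.79 in CDDP 1, -1.13 in CDDP 3 and 0.89 in CDDP 2. In the Saline hearts it was -0.33, -0.64 and 0.11, in STING-/- hearts -0.09, 0.01 and 0.83, and in STING-/-+CDDP hearts 0.29, 0.74 and 1.11. Among 6053 other genes with a mean of at least 10 TPM, those most like this score over the 12 hearts were Vwa8 (r = 0.96), Etfdh (0.95), Hsdl2 (0.94), Acacb (0.94) and Crat (0.93). Etfdh encodes the enzyme that passes electrons from the acyl-CoA dehydrogenases to ubiquinone, Acacb makes malonyl-CoA and Crat joins acetyl groups to carnitine.

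Gene lists of the rest of the pathway were described by counts and medians in CDDP against Saline. Of all tested genes 10.4% were called lower and 8.52% higher there, and these shares stand beside the counts of each list. Of 15 tested genes for delivery, uptake and activation, 1 rose and 2 fell. Lpl, the lipase that frees fatty acids from lipoproteins, had 768, 693 and 862 TPM in Saline and 1362, 1962 and 1884 TPM in CDDP hearts, well apart, and rose by 1.15 ± 0.15 (adjusted p = 0.00106). Fabp4 and Fabp5, binding proteins found in capillary endothelium, fell by 1.18 (adjusted p = 0.0104) and dropped by 1.64 (0.000935), in that order. Of 5 carnitine genes, Slc22a5, the importer of carnitine into the cell, fell by 0.58 (0.0425) and rose by 0.87 (0.0452) in STING-/-+CDDP over CDDP hearts. It had 9.14, 12.8 and 10.4 TPM in Saline, 5.56, 7.59 and 7.47 TPM in CDDP and 15.0, 12 and 12.9 TPM in STING-/-+CDDP hearts, so that the CDDP hearts were lowest.

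Of 17 other mitochondrial beta-oxidation enzymes, 4 rose in CDDP hearts and none fell, with a median of 0.09. Of all tested genes 8.52% were called higher and 10.4% lower. The 4 included Acadsb (0.79) and Ivd (0.59), dehydrogenases of branched-chain amino acid breakdown, and Hsd17b10 (0.59), which acts on short and branched chains. The 3 genes of electron transfer had no call. Among 12 peroxisomal genes, Hsd17b4, of peroxisomal beta-oxidation, fell by 0.67 (adjusted p = 0.0045) in CDDP hearts. Ehhadh, a peroxisomal enzyme induced by PPAR alpha, rose by 1.34 (0.0203) in STING-/-+CDDP over STING-/- and by 1.14 (0.0330) over CDDP hearts, at 12.5, 10.96 and 14.3 TPM against 3.33 to 6.53 TPM in the other 2 groups named.

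Of 19 transcription factors and coactivators, Esrra, the estrogen-related receptor alpha, fell by 0.69 (adjusted p = 0.0317) and Nrf1, a regulator of respiratory chain genes, rose by 0.68 (0.0438). Esrra had 71.5, 75.4 and 67.3 TPM in Saline and 30.6, 53.1 and 51.2 TPM in CDDP hearts, all below. Ppara and Ppargc1a, named here for their role and outside the naming rule, were not called. Ppara had 7.38, 8.77 and 8.59 TPM in Saline and 2.92, 16.5 and 15.9 TPM in CDDP hearts, and Ppargc1a 15.4, 17.5 and 19.4 TPM against 4.58, 27.9 and 21.2 TPM. In both, CDDP 1 was the lowest and CDDP 2 the highest of all 12 hearts, so that the CDDP group had hearts on either side of the Saline range. In STING-/-+CDDP over CDDP hearts all 9 tested PPAR-responsive genes had values above 0 with a median of 0.88, and 0 were called by limma.

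Of 13 genes of triacylglycerol storage and lipolysis, Plin4, a lipid droplet coat protein, rose by 1.80 (adjusted p = 0.00384) in CDDP against Saline, while 3 fell, G0s2, an inhibitor of the lipase ATGL, by 1.43 (0.00307), Mgll by 0.87 (0.0376) and 1 further gene. G0s2 had 57.7, 93.7 and 74.5 TPM in Saline, 18.5, 30.3 and 33.9 TPM in CDDP and 85.3, 94.3 and 68.9 TPM in STING-/-+CDDP hearts, and was called higher in the last over CDDP by 1.58 (0.0202). Plin5, which ties lipid droplets to mitochondria, was called higher there as well, by 1.53 (0.0216), at 115, 155 and 155 TPM against 45.1, 69.2 and 35.5 TPM.

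Counts for other fuels in CDDP against Saline stand beside the 10.4% of all tested genes called lower and 8.52% called higher. Of 12 genes for the entry of glucose carbon, 4 fell and 1 rose, with a median of -0.60. Pdhb and Dlat, subunits of pyruvate dehydrogenase, fell by 0.92 (adjusted p = 0.00687) and 0.79 (0.00513), and Slc2a1, a glucose transporter, rose by 0.73 (0.0341). Of 4 ketone body genes, Oxct1, which activates ketone bodies for use, fell by 0.81 (0.00774), Slc16a7 fell by 1.26 and Bdh1 rose by 1.31. Of 18 citric acid cycle genes 2 fell (Sdhd and Dlst) and 1 rose (Idh2), of 20 nuclear respiratory chain subunits 4 fell and of 12 genes of mitochondrial mass 2 fell. None of the 11 tested mitochondrially encoded genes and 1 of 9 genes of malonyl-CoA control (Prkag1, higher by 0.40) was called.

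**Figure D4:**
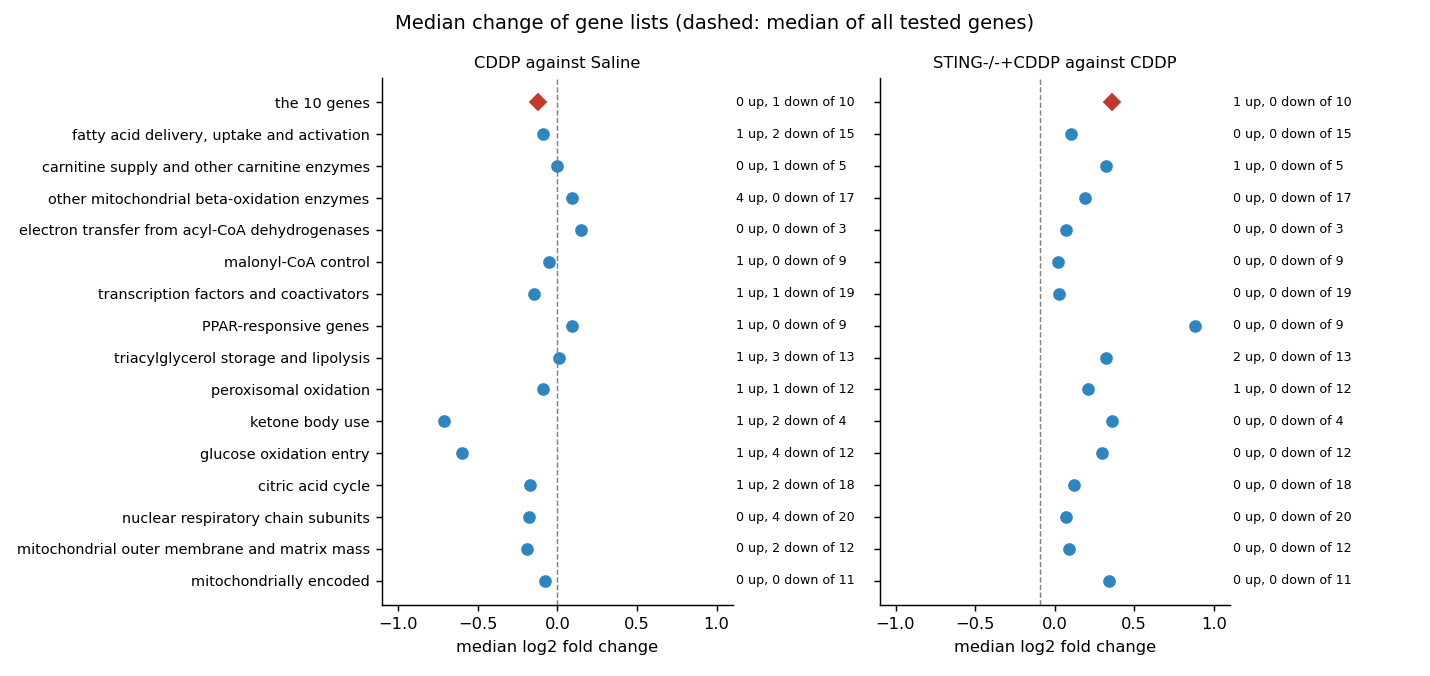
Median log2 fold change (x axis) of the 10 genes (red diamond) and of 15 other gene lists (blue points) in 2 comparisons, with the counts called higher (up) and lower (down) of those tested at the right and a dashed line at the median of all tested genes. The 10 genes lie at -0.12 in CDDP against Saline and at 0.36 in STING-/-+CDDP against CDDP.

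Markers of cell types were read beside these results. The same 10.4% lower and 8.52% higher of all tested genes stand beside their counts in CDDP against Saline. Of 18 cardiomyocyte markers, 6 were lower and 1 higher in CDDP than in Saline, with a median of -0.47, among them Actc1 (-3.55), Casq2 (-1.82), Ckmt2 (-0.94) and Mb (-0.56). Mb was the most abundant of them and none was at 0. Their summed level was 86576, 63603 and 74933 TPM in Saline, 48019, 67737 and 58132 TPM in CDDP, 69135, 65606 and 85888 TPM in STING-/- and 60859, 73725 and 67068 TPM in STING-/-+CDDP hearts. CDDP 1 was lowest, CDDP 3 next and CDDP 2 within the Saline range. In the sum of the 10 genes CDDP 1 was also lowest and CDDP 3 next, with CDDP 2 just above the highest Saline heart. When every heart was centred on the mean log2 level of these markers, the median of all tested genes in CDDP against Saline moved from 0.00 to 0.54 and that of the 10 genes to 0.42, below it. Fabp3 then had -0.08 ± 0.18 (adjusted p = 0.732), and 4 genes (Acadl, Slc25a20, Acadvl, Hadha) were called higher, from 0.52 for Hadha to 0.76 for Slc25a20, Hadha by less than the shift of all genes. Of all tested genes 31.6% were called higher after this centring, so 4 of 10 lay near the background. The part of cardiomyocyte content in the fall of Fabp3 was not tested.

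Of 12 endothelial markers, 4 were lower in CDDP than in Saline hearts, with a median of -0.48, and they summed to 970, 934 and 914 TPM in Saline, 620, 684 and 766 TPM in CDDP, 846, 861 and 619 TPM in STING-/- and 823, 894 and 606 TPM in STING-/-+CDDP hearts. Pecam1, the most abundant, had 0.03 ± 0.24, and Kdr fell by 1.39. Endothelium also makes CD36, FABP4 and FABP5, and its part in their values was not tested.

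Other lists moved more in CDDP against Saline. All 6 erythroid markers fell (median -4.76), and they summed to 6822, 4149 and 9325 TPM in Saline, 1272, 141 and 42.3 TPM in CDDP, 1267, 1467 and 264 TPM in STING-/- and 101, 82.3 and 311 TPM in STING-/-+CDDP hearts, led by Hbb-bs. In STING-/- against Saline their median was -2.97, with 0 of 6 called by limma. With the hemoglobin genes left out of the total, the change of Fabp3 was still called (adjusted p = 0.0414). Of 10 macrophage markers 7 fell (median -1.25, led by C1qa), with sums of 548, 768 and 572 TPM in Saline, 191, 354 and 342 TPM in CDDP, 796, 687 and 550 TPM in STING-/- and 404, 457 and 228 TPM in STING-/-+CDDP hearts. Of 10 fibroblast markers 5 fell (median -1.37), while their sums, led by Dcn, overlapped at 943 to 2337 TPM in Saline and 1047 to 2266 TPM in CDDP hearts. Of 8 smooth muscle and pericyte markers 2 fell (median -0.78), with sums of 580, 610 and 516 TPM in Saline and 183, 252 and 608 TPM in CDDP hearts. The part of macrophages, fibroblasts and mural cells in the values of the 10 genes was not tested.

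The 6 atrial markers, led by Nppa, summed to 312, 39135 and 341 TPM in Saline, 3794, 859 and 14629 TPM in CDDP, 3029, 12857 and 8978 TPM in STING-/- and 9030, 904 and 332 TPM in STING-/-+CDDP hearts. Bmp10 was at 0 in 4 hearts. The Saline group alone ran from 312 to 39135 TPM. With the atrial level as a covariate Fabp3 in CDDP against Saline had -0.56 ± 0.19 (adjusted p = 0.0590). The 7 neutrophil markers, led by S100a9, summed to 1120 TPM in CDDP 1 and to between 4.60 and 90.8 TPM in the other 11 hearts, with Ly6g, a defining marker, at 1.75 TPM in CDDP 1 and at 0 in 5 hearts. The 9 adipocyte markers, led by Cfd, summed to between 22.1 and 198 TPM and were highest in STING-/- 2. Adipoq, their defining gene, had 0.36, 8.19 and 0.08 TPM in Saline, 0.32, 2.75 and 6.83 TPM in CDDP, 14.4, 11.7 and 5.13 TPM in STING-/- and 3.13, 4.94 and 3.88 TPM in STING-/-+CDDP hearts, and Lep was at 0 in 4 hearts. CDDP 1, lowest for 8 of the 10 genes, thus had the lowest cardiomyocyte and the highest neutrophil sum. The part of atrial, neutrophil and fat tissue in the results was not tested further.

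**Figure D5:**
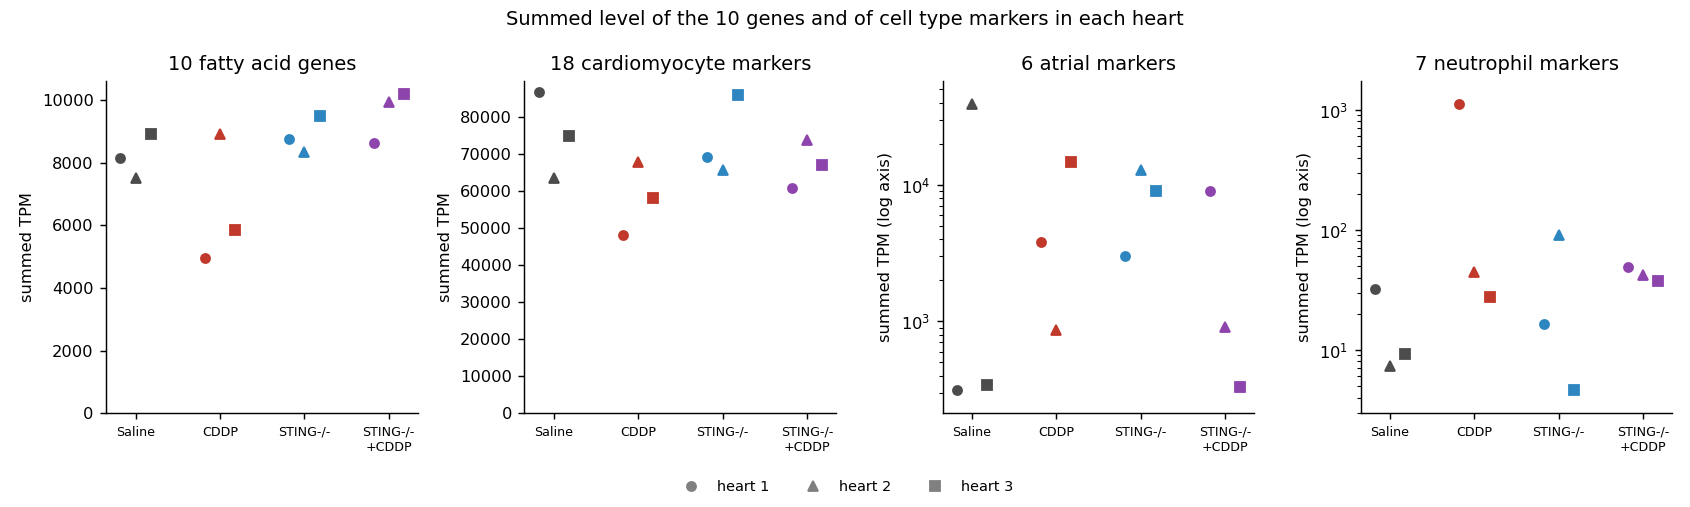
Summed TPM (y axis, logarithmic for atrial and neutrophil markers) of the 10 genes and of 3 marker lists in each of the 12 hearts by group (x axis). CDDP 1 has the lowest sum of the 10 genes (4970 TPM) and of cardiomyocyte markers (48019 TPM) and the highest of neutrophil markers (1120 TPM).

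Some genes of the annotation share ground with the 10. Gm44502 is annotated over all of Cpt1b on the same strand and had a mean of 9.13 TPM, so that the split of reads between them is uncertain. Zcchc17 (17.4 TPM) overlaps the end of Fabp3 and Dvl2 (3.13 TPM) that of Acadvl on the opposite strand, and whether the counting used strand is not given in the sources used here. Against 4172 TPM for Fabp3 and 512 TPM for Acadvl these levels are small.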

How the data were processed

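The TPM values were deposited by the authors as 1 table of 12 hearts. The submitters' processing notes name fastp, HISAT, RSEM and the build GRCm38.p5, without versions, and the annotation and strand setting are not given in the sources used here. RSEM shares reads between overlapping genes. The 4 columns of group means in the deposited TPM table were not used, and 0 columns of other values were left unmapped. Each heart has the same total, so a fall of abundant genes raises the others.

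The 10 genes and all lists were chosen with earlier results of these data known. Values were taken as log2(TPM + 1), only genes reaching 1 TPM in 3 or more hearts entered, and limma 3.58.1 (R 4.3.3) was fitted with 1 coefficient per group, trended variance, 8 residual degrees of freedom, two-sided tests and Benjamini-Hochberg adjustment over 13815 genes. The median SE of a difference of 2 groups was 0.22. The study names an adjusted p cutoff but no test. The fit was tested on simulated data with known changes. Groups came from the genotype and treatment labels. The labels do not state separate litters, so p-values measure the spread between these hearts. Named genes were the 10 themselves and, of each list, the most abundant gene and up to 3 called genes with the largest change, of which some are not reported here. Coordinates are those of GENCODE M21 on GRCm38, which held 55141 of the 55885 gene identifiers. Alternatives were another pseudocount, other filters, other scalings, other variance models, only the groups compared, a replicate block, each heart left out and, added after seeing the data, atrial markers as a covariate. Python 3.11.15 and matplotlib 3.10.9 were used for tables and figures.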

Additional observations from a re-analysis of the deposited data

Results flagged for a closer look

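Cpt2 was singled out because its hearts moved in opposite ways with cisplatin in the 2 genotypes. All 3 CDDP hearts (60.8 to 88.7 TPM) were below all 3 Saline hearts (89.1 to 94.7 TPM), and all 3 STING-/-+CDDP hearts (122 to 141 TPM) were above all 3 STING-/- hearts (89.6 to 122 TPM). Of all tested genes 17.1% had the first order and 7.28% the second. The difference between the 2 effects was 0.69 ± 0.23 on the log2 scale (adjusted p = 0.338 in limma), which does not pass the threshold. In each genotype the order rests on a gap of less than 1 TPM between the nearest hearts. The formal test for a single outlying sample was not run, since it needs groups of 4 or more.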

How the results depend on the processing

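The direction of both calls held in every alternative run, but neither call held throughout. Fabp3 in CDDP against Saline missed the threshold with only the groups compared (-0.63, adjusted p = 0.150), no filter (-0.63), quantile normalization (-0.63), eBayes without trend (-0.63), the replicate block (-0.63, 0.0562), median of ratios (-0.62), the atrial covariate (-0.56), arrayWeights (-0.45) and centring on cardiomyocyte markers (-0.08), and ran from -0.90 to -0.43 with 1 heart left out. Cpt2 in STING-/-+CDDP against CDDP missed it with median of ratios (0.95), no filter, only the groups compared or the replicate block (each 0.83, 0.0753 with the block), arrayWeights (0.69) and centring (0.56), and ran from 0.71 to 0.98 with 1 heart left out. Equal numbers mark different animals. The deviations of same-numbered hearts correlated between -0.33 and 0.26. Hearts of unlike number were not set beside these values, so a shared batch or order was not tested.

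Of the 10 genes, the count called in CDDP against Saline (1) was 4 with centring, 0 in the 8 other settings just named for Fabp3, and 0 to 3 with 1 heart left out. In STING-/-+CDDP against CDDP (1) it was 2 with quantile normalization or a filter at 5 TPM (2.27% and 0.69% of all tested genes called higher), 0 in the 6 settings named for Cpt2, and 0 to 4 with 1 heart left out. Averaged over genotypes (0) it was 7 with centring, where 28.5% of all tested genes were called higher, and 0 to 2 with 1 heart left out, the 2 being lower without CDDP 2, where 11% of all tested genes were. Centring turned the sign of Cpt1b (0.11), Cpt2 (0.21), Hadha (0.52) and Hadhb (0.20) in CDDP against Saline, of Slc25a20 in STING-/-+CDDP against CDDP (-0.04), of Acadm (0.41), Cpt1b (0.18) and Fabp3 (0.14) in the averaged effect and of Cd36 in the interaction (-0.04). It moved the share of higher calls among all genes in CDDP against Saline from 45.1% to 92.6%. A further 40 values within their SE of 0 changed sign in the 13 alternatives and 54 with 1 heart left out.

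Counts over all genes moved more. CDDP against Saline (2610) gave 822 with only the groups compared, 4713 with centring and 1241 to 2548 with 1 heart left out. STING-/-+CDDP against CDDP (168) gave 12 with no filter, 38 with only the groups compared, 67 with the replicate block, 88 with centring, 287 without mitochondrially encoded genes, 320 with the atrial covariate, 655 with median of ratios, 671 with quantile normalization and 11 to 388 with 1 heart left out. STING-/-+CDDP against STING-/- (129) gave 45 with centring, 46 with no filter, 204 with only the groups compared, 250 with median of ratios, 297 with quantile normalization, 613 with arrayWeights and 15 to 203 with 1 heart left out. The averaged effect (2740) gave 4345 with centring. STING-/- against Saline (10) gave 4 with no filter, 5 with the atrial covariate or the replicate block, 29 with arrayWeights and 3 to 14 with 1 heart left out. The interaction (1) gave 2 with arrayWeights or the atrial covariate, 3 with median of ratios or quantile normalization and 1 to 15 with 1 heart left out. The causes were not tested. Depth is unknown, and 3 hearts per group set the limit.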
